A study of Mus musculus with 8 samples.

Results

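The sites described here are the replication initiation sites (ISs) that lay within 10 kb of a gene whose symbol starts with Hist1h, Hist2h or Hist3h, the clustered replication-dependent histone genes of the mouse. They were chosen by position, from the GENCODE M1 annotation of mm9. The annotation held 69 such genes of 37310 genes in all, of which 66 were protein coding and 3 were pseudogenes. Of the 39116 ISs in the merged table of Rif1KO against WT, 5 lay that near, and of the 129937 ISs in the merged table of Rif1KO_shMcm6 against Rif1KO_shLacZ, 15 did. Because 3 ISs of the first table overlapped ISs of the second, the members came to 17 distinct places.

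ISs were mapped in CH12, a line of mouse B lymphoma cells, by SNS-seq. This sequences short nascent strands, new DNA that is kept by its size and by its resistance to lambda exonuclease. All 8 libraries came from CH12 cells cultured with IL4, CD40 and TGF beta stimulation, with 2 libraries in each of 4 groups: WT cells, Rif1KO cells without a functional Rif1 gene, Rif1KO cells with a hairpin RNA against LacZ as the infection control (Rif1KO_shLacZ), and Rif1KO cells with a hairpin RNA against the helicase subunit Mcm6 (Rif1KO_shMcm6). The second comparison therefore lacked RIF1 on both sides, and its cells carried a lentivirus that the WT and Rif1KO cells did not. The labels do not name the clone of the Rif1KO cells. The tables gave 1 density per condition, pooled over both libraries, so no value below has a replicate error, and no test across replicates could be made. Reads inside ISs were 3350255 for WT, 3724571 for Rif1KO, 21071351 for Rif1KO_shLacZ and 23602750 for Rif1KO_shMcm6. Densities are in log2 RPM, reads per 1000000 reads inside the ISs of a table, so densities were compared within a table and not between the tables. They were not divided by the width of an IS, so rankings by density take no account of width.

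Replication-dependent histone genes make the bulk of the H1, H2A, H2B, H3 and H4 proteins that package new DNA in S phase. They lack introns as a rule, stand in dense clusters, and give mRNAs that end in a conserved stem-loop in place of a poly(A) tail. The stem-loop is bound by SLBP, and NPAT, a substrate of cyclin E and CDK2, drives their transcription from a nuclear body that forms at the clusters. In the same cells, replication starts where MCM helicases have been loaded on DNA and are activated, and RIF1 is known as a regulator of the time at which domains replicate. In mammals, ISs are known to lie often near transcription starts and near G-rich sequence that can fold into G-quadruplexes.

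The 69 genes were 6 of H1, 20 of H2A, 19 of H2B, 12 of H3 and 12 of H4, the pseudogenes included. Split where neighbours stood more than 100 kb apart, they formed 7 groups. The largest, on chromosome 13 (mm9 chr13:23622919-23856283), held 29 genes from Hist1h4h to Hist1h1a. A second stretch of Hist1 at chr13:21807632-21929399 held 19 genes from Hist1h2bl to Hist1h2br, another at chr13:22126982-22135545 held 5, and chr13:24025637-24026720 held the pair Hist1h2ba and Hist1h2aa. Hist1h2al stood alone at chr13:51298057-51298434. The 10 Hist2 genes lay at chr3:96023839-96082924 and the 3 Hist3 genes at chr11:58762413-58770176.

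The stem-loop was searched for to check that these are the replication-dependent genes. Within 150 bases after a coding end, 62 of the 66 protein-coding genes held a 16-base stem-loop, 22 to 59 bases past the end with a median of 31, against 5 of 22301 other protein-coding genes (0.0224%). The genes without a match were Hist1h2an, Hist1h2al, Hist2h2be and Hist2h2bb. Of the 5 ISs of the first table, 3 were nearest to Hist1h2al, to Hist2h2bb or to the pseudogene Hist3h2bb-ps, and 3 of the 15 of the second table were nearest to Hist1h2al, so these ISs lay by genes that did not pass this check or were not searched. There were 8 distinct sequences, and the commonest stood in 39 genes. Those of the 3 commonest kinds and of Hist1h4j are printed as DNA of the coding strand to show how alike they are, with the arms of the stem in capitals.
Commonest stem-loop, Hist1h1c (chr13:23831381-23831396) among its 39 genes: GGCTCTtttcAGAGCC
Stem-loop of 9 genes, Hist1h2bb (chr13:23839072-23839087) among them: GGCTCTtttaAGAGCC
Stem-loop of 7 genes: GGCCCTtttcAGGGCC
Stem-loop of Hist1h4j (chr13:21827306-21827321) and 1 other gene: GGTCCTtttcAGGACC

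Few ISs lay near these genes, and those that did were mostly between genes or past their ends. Of the 17 places, 14 overlapped no annotated gene. The others overlapped the last part of Hist1h1c, a linker histone gene, the pseudogene Gm11338 and the start of Trim17, a neighbour of Hist3h2a. The share without a gene was not computed over all ISs, so it is not read as a trait of these places. The ISs that the results turn on are printed below from the NCBIM37 sequence, which is mm9, on the plus strand, with G-quadruplex motifs in capitals (4 runs of at least 3 G, or of at least 3 C for the other strand, 1 to 7 bases apart). Of ISs longer than 300 bases, the part given is stated.
Middle of the IS upstream of Hist1h4j, chr13:21825752-21826051: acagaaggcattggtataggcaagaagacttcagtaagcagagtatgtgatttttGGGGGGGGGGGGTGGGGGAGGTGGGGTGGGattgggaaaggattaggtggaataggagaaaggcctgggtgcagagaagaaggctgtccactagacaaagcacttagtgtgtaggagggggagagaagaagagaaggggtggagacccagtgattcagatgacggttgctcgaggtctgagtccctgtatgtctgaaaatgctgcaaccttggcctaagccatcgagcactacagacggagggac
End of the IS downstream of Hist1h1c, chr13:23832556-23832855: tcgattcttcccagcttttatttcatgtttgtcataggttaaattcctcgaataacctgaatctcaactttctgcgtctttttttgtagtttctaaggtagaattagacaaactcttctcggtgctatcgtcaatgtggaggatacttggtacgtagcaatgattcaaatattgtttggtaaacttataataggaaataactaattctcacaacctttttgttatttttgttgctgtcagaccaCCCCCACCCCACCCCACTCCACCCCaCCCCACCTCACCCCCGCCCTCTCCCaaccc
Middle of the IS downstream of Hist2h2bb, chr3:96083939-96084238: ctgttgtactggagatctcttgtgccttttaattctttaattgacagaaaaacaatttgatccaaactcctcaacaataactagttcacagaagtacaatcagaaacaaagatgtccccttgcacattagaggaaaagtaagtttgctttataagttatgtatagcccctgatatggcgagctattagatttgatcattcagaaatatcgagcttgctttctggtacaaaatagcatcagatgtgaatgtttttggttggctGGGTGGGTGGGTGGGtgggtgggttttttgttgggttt
First 300 bases of the IS downstream of Hist1h2bj, which holds no such motif, chr13:22145106-22145405: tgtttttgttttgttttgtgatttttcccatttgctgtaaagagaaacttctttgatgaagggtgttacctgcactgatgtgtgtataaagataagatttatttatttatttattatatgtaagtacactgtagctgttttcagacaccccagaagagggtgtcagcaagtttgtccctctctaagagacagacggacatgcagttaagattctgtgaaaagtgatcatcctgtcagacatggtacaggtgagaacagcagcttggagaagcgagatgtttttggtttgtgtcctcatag

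They show the IS nearest to a protein-coding histone start, 2 of the 3 ISs of the first table that held the motif, and the member with the largest fold change. A G-quadruplex motif stood in 3 of the 5 ISs of the first table and in 9 of the 15 of the second (60.0% each), against 77.4% and 77.3% of all ISs of those tables. Their median GC content was 44.9% and 44.5%, against 46.9% and 44.4% over all ISs. No test was made on so few ISs.

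Histone promoters themselves had another make-up than most promoters. In the 250 bases before the annotated start, on either strand, CCAAT, the box bound by NF-Y, stood in 57 of 66 histone genes (86.4%), against 34.8% of the other 22301 protein-coding genes. TATAAA stood in 33 (50%) against 12.2%. ATTTGCAT, the octamer bound by OCT1, stood in 15 (22.7%) against 1.56%, and those were 7 H2A and 8 H2B genes. Genes that stand head to head share much of these windows, so 1 match can count for both. CCGCCC, a binding sequence of SP1, stood in 20 (30.3%) against 39.6%. Classes differed, with CCGCCC in 9 of 12 H4 and 4 of 6 H1 genes, but in 6 of 19 H2A, 1 of 11 H3 and 0 of 18 H2B genes. CCAAT stood in only 4 of the 12 H4 genes. None of these motifs contains another. G-quadruplex motifs were found in 3 of the 66 windows (4.55%) against 19.1%, and within 1 kb to each side of the start in 13 (19.7%) against 55.4%. The median GC content upstream was 44.4% (54.0% in the others). For 8 of the 66 genes the annotated start was the coding start, so their window holds the leader too.

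The promoter of Hist1h4j, an H4 gene at chr13:21826903-21827329, is shown because this was the 1 protein-coding histone gene with an IS at most 1 kb from its start. Capitals mark the 1 match among the 4 motifs, CCGCCC, near the end of the window. The IS ended 467 bp before the start, so it did not reach the printed bases.
Hist1h4j, 250 bases upstream, plus strand, chr13:21826653-21826902: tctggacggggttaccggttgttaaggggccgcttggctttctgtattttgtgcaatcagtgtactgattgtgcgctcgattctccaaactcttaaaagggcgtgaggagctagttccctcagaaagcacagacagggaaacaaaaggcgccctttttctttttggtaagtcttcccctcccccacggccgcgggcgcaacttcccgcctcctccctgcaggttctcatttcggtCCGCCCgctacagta

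**Figure D1:**
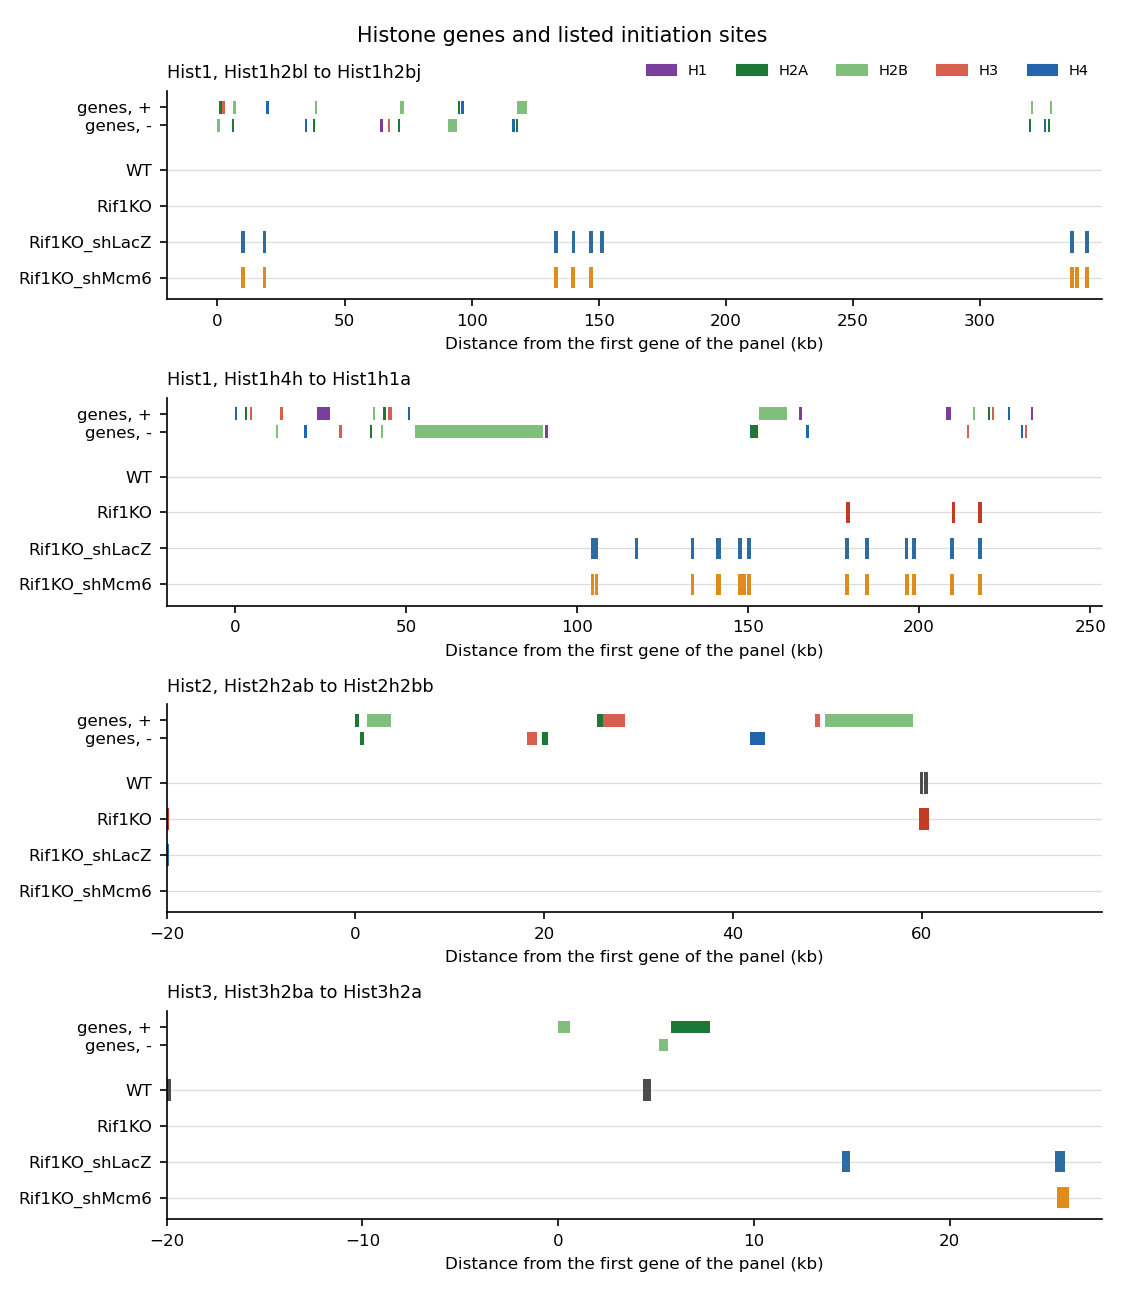
Genes of 4 stretches (coloured by histone class, by strand) and the ISs of the 4 condition lists, in kb from the first gene of each panel. ISs are drawn at a minimum width so that they can be seen. WT and Rif1KO had no listed IS in the stretch from Hist1h2bl to Hist1h2bj, and past the last Hist2 gene these lists held ISs where those of Rif1KO_shLacZ and Rif1KO_shMcm6 held none.

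The question asked first was where in the histone gene groups replication starts in each condition. The windows of 10 kb around the genes covered 0.507 Mb and held 4 ISs in the WT list, 4 in Rif1KO, 13 in Rif1KO_shLacZ and 14 in Rif1KO_shMcm6. That came to 7.88, 7.88, 25.6 and 27.6 ISs per Mb. Over the genome the 4 lists held 10.1, 13.1, 39.3 and 45.2 per Mb, and within 10 to 500 kb of a histone gene they held 10.6, 12.7, 39.7 and 43.1. The histone windows thus had fewer ISs per Mb than their surroundings in each list, on counts of 4 to 14 ISs. Only reads with a single place in mm9 were kept, and the rates were not corrected for this. Of the 69 gene windows, 27 had under 90% of their 50-base words at a single place, and 6 had under 50%. The same share was not computed for the surroundings, so its part in these rates was not tested.

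**Figure D2:**
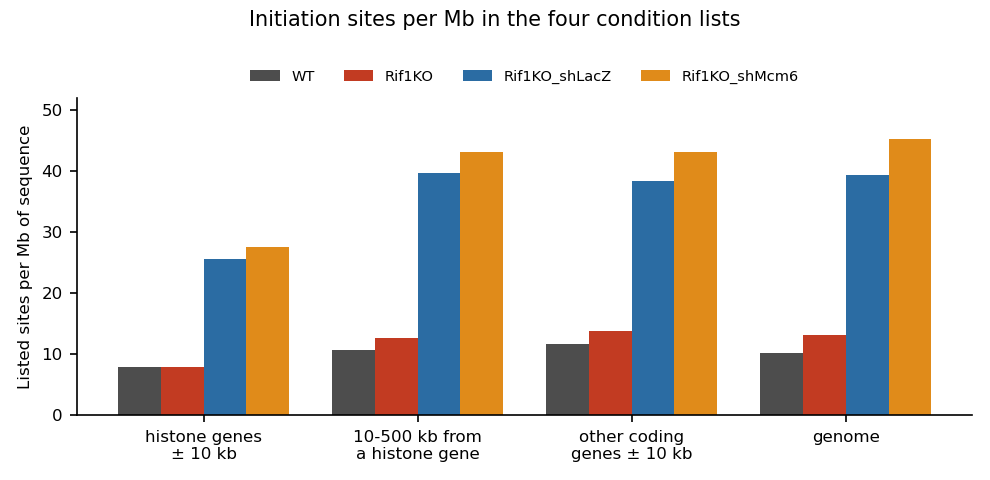
ISs per Mb of sequence in the 4 condition lists, over histone genes with 10 kb to each side, their surroundings, other protein-coding genes with 10 kb to each side, and the genome. In each list the bar over histone genes is the lowest of the 4 regions, at 7.88, 7.88, 25.6 and 27.6 per Mb. The rates are not corrected for sequence to which reads cannot align uniquely.

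By group the counts were too small to compare, and no test was made. The 19-gene and the 5-gene stretches of Hist1 held 0 ISs of the WT and Rif1KO lists, and 2 and 2 of the merged table of the hairpin cells. The largest Hist1 group held 0 ISs in WT, 2 in Rif1KO, 6 in Rif1KO_shLacZ and 7 in Rif1KO_shMcm6. Hist1h2ba and Hist1h2aa, an H2B and an H2A gene known for their expression in testis, had none within 10 kb in any list. Their surroundings, within 10 to 500 kb, held 9.41, 4.74 and 16.5 ISs per Mb of the first table, and their own windows covered 0.136, 0.0286 and 0.0211 Mb, so that few or no ISs would be found there at those rates. In the second table, the 5-gene stretch held 70.0 per Mb against 27.3 around it, and Hist2 held 0 in 0.0791 Mb against 62.2 per Mb around it. There the 19-gene stretch held 14.7 against 27.2, and Hist1h2ba and Hist1h2aa held 0 against 54.7. In the first table Hist2 held 12.6 per Mb against 21.4. The largest Hist1 group held 10.3 per Mb of the first table and 36.1 of the second, against 16.7 and 44.2 around it. Around Hist1h2al, the 0.0204 Mb window held 1, 1, 3 and 3 ISs. That was 49.1 per Mb of the first table and 147 of the second, against 18.4 and 58.2 around it. The Hist3 window held 36.0 per Mb of each table, against 14.3 and 54.1 around it. The Hist2 group held 2 in WT, which merged into 1 with the 1 of Rif1KO, and 0 in both hairpin lists, while the Hist3 group held 1 in WT, 0 in Rif1KO, 1 in Rif1KO_shLacZ and 0 in Rif1KO_shMcm6.

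Many histone genes lay in long stretches without a listed IS, and others in ordinary ones. In the WT list, 24 histone genes from Hist1h2bl to Hist1h2bj lay in 1 stretch of 1510 kb between neighbouring ISs, and 31 genes from Hist1h4h to Hist1h2aa lay in another of 667 kb. The median stretch of that list was 24.0 kb, but genes are more likely to fall in long stretches than in short ones. Read against genes, 9.06% of other protein-coding genes started in a stretch at least as long as the first, and 22.5% in one as long as the second. The 10 Hist2 genes of that list lay in a stretch of 211 kb, but 53.5% of other genes lay in one as long, and for the 41.3 kb around Hist1h2al it was 79.8%. In Rif1KO, the first stretch was 991 kb (8.98% of other genes in one as long). The second was broken by ISs, and its pieces with histone genes were of 7.22 to 221 kb, the longest with 20 genes from Hist1h4h to Hist1h4c (48.9%), and the Hist2 genes lay in 79.6 kb (74.0%). In Rif1KO_shLacZ and Rif1KO_shMcm6, the longest stretches with histone genes were of 200 kb over the 10 Hist2 genes and of 204 kb over 16 genes from Hist1h4h to Hist1h1e (15.7% and 13.2% of other genes in ones as long).

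The ISs listed are a filtered set, and the peak numbers in their names show how much was removed. Between the ISs that bound the 1510 kb stretch of WT, 15 peaks of replicate 1 and 16 of replicate 2 had been called but were not listed. In Rif1KO, 14 and 16 lay in the 991 kb stretch. Over all histone stretches the unlisted peaks came to 12.6 and 12.2 per Mb in the WT replicates, against 8.16 and 8.04 per Mb between all listed ISs of WT. They came to 11.5 and 16.3 against 8.85 and 10.4 in Rif1KO, to 20.2 and 23.5 against 18.9 and 20.7 in Rif1KO_shLacZ, and to 28.4 and 30.1 against 21.1 and 23.6 in Rif1KO_shMcm6. These rates cannot be set against each other as rates of calling, since the stretches were chosen for holding no listed IS and reach far past the genes. They show that peaks had been called in them, and a peak was kept where both replicates had it and where it stood in a cluster of peaks. Some stretches had none at all. From Hist1h2bl to Hist1h2bm, a 35.0 to 35.1 kb stretch with 5 histone genes, 0 unlisted peaks were called in either replicate of Rif1KO_shLacZ and of Rif1KO_shMcm6, and the 79.6 kb over the Hist2 genes had 0 in both replicates of Rif1KO. The longer stretches over the Hist2 genes had 3 in each replicate of WT, and 6 in each replicate of Rif1KO_shLacZ and of Rif1KO_shMcm6. Which of the unlisted peaks lay within 10 kb of a gene cannot be read from their numbers.

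At the gene starts, ISs were nearly absent. None of the 66 protein-coding histone genes had an IS at most 1 kb from a transcription start in the table of Rif1KO against WT (0%, 95% Wilson interval 0 to 5.50%), whereas 2418 of 22301 other protein-coding genes did (10.8%). In the table of Rif1KO_shMcm6 against Rif1KO_shLacZ, 1 of 66 did (1.52%, 0.268 to 8.10%), Hist1h4j, against 4990 of the others (22.4%). The median distance from a histone start to the nearest IS was 74.9 kb in the first table and 19.4 kb in the second, against 27.4 and 7.80 kb for the others. These medians are split below by how unique the sequence at the start was. Counting pseudogenes, Hist3h2bb-ps had an IS 885 bp from its start in the first table. Histone genes stand in 7 groups and share their nearest ISs, so they are not independent and the intervals are too narrow.

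**Figure D3:**
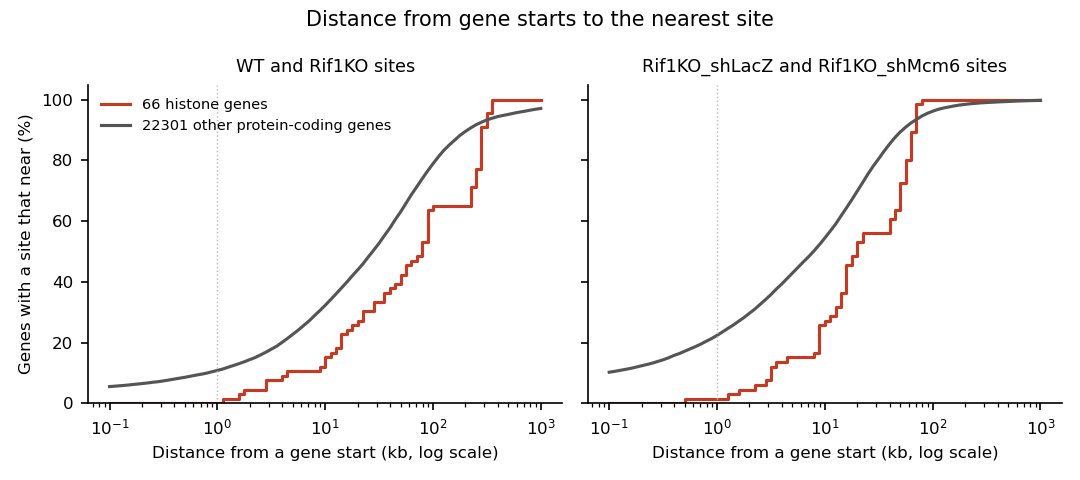
Share of genes (%) with an IS within the distance on the x axis (kb, log scale) of a transcription start, for 66 histone genes and 22301 other protein-coding genes, in each merged table. At 1 kb, marked by the dotted line, the histone genes stand at 0% and 1.52% and the other genes at 10.8% and 22.4%.

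How near a gene came to an IS varied by group. The H2B genes Hist1h2bl and Hist1h2bm, the H2A gene Hist1h2ai, the H3 gene Hist1h3h and the H4 gene Hist1h4k stood 207 to 241 kb from an IS of the first table, and 2.39 to 15.6 kb from one of the second. Among Hist2 genes, the distance from gene to IS ran from 0.638 kb for Hist2h2bb to 39.3 kb for Hist2h2aa2 in the first table, and from 19.8 kb for Hist2h2ab to 61.6 kb for Hist2h4 in the second. Hist2h2ab, Hist2h2ac, Hist2h2be, Hist2h3c2, Hist2h2aa1, Hist2h3c1, Hist2h4 and Hist2h3b lay between 10.5 and 38.1 kb in the first. Hist3h2ba stood 3.73 kb and Hist3h2a 1.06 kb from the IS next to Hist3h2bb-ps, and 13.9 and 6.72 kb from an IS of the second table.

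Histone H2A and H2B genes often stand head to head and share a promoter. Among the protein-coding genes, 13 neighbouring pairs diverged with their starts less than 1 kb apart, 12 of them an H2A with an H2B gene and the other Hist1h2bh with the H3 gene Hist1h3f. The starts were 167 to 692 bases apart, with a median of 240. Since no gene of these pairs had an IS within 1 kb of its start in either table, none of the 13 shared promoters held one, which adds nothing to the counts at starts.

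The authors kept reads that aligned to a single place, and histone genes are copies of each other, so the share of 50-base words that are unique in mm9 was computed for each gene. Over the gene bodies its median was 54.1%, from 0% to 100%, with 31 of 69 genes under 50%. By class, the medians were 97.6% for H1, 39.5% for H2A, 56.0% for H2B, 41.2% for H3 and 56.7% for H4. Within 1 kb to each side of the start the median was 78.2%, and 51 of 69 histone genes (73.9%) fell under 90%, against 14.4% of the other protein-coding genes. Some genes offered no unique word. Hist1h2bq, Hist1h2ao, Hist1h2ap and Hist1h2br had 0% unique words in body and start, and Hist1h4m and Hist1h4n, which stand beside them, had 10.2% and 7.09% in the body. For the 4 genes with 0% in both, the lack of an IS there says nothing. Hist2h2aa1 and Hist2h2aa2 had 0% in the body, but 43.5% and 43.7% around the start.

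**Figure D4:**
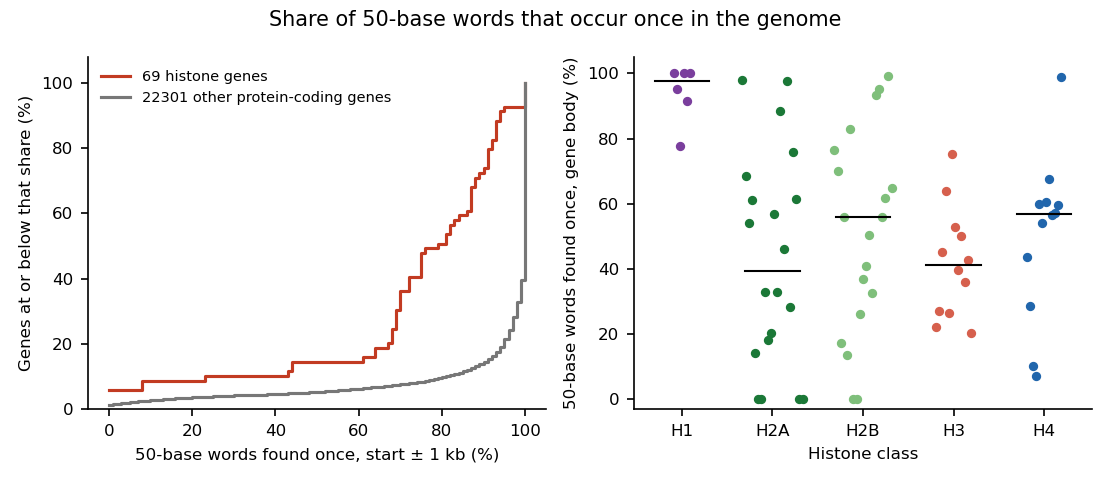
Left, cumulative share of genes (y axis) against the share of 50-base words near their start that are unique in the genome (x axis), for 69 histone genes and 22301 others. Right, the share over the gene body for each histone gene by class, with the median as a line, from 39.5% for H2A to 97.6% for H1.

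Starts with at least 90% unique words were compared as well, a split chosen after the data were seen. There, 0 of 17 histone genes had an IS within 1 kb in either table (Wilson interval 0 to 18.4%), against 12.1% and 24.2% of 19091 other genes. The 17 included the linker histone genes Hist1h1a, Hist1h1b, Hist1h1c, Hist1h1d, Hist1h1e and Hist1h1t. At the starts with under 90%, 0 and 1 of 49 histone genes had an IS (0 to 7.27%, and 0.361 to 10.7%), against 3.40% and 11.3% of 3210 other genes. In the first table both comparisons lie within the Wilson intervals of the histone shares, so with copies set apart the counts there are too small to tell the histone starts from others. In the second, 24.2% lies above the interval of the well-mapped histone starts, and 11.3% lies above that of the rest, which ends at 10.7%. Because genes of a group share their ISs and these intervals are too narrow, neither was read as a difference. The part that unique alignment played in the whole result was not tested beyond this split.

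Of the members themselves, those of Rif1KO against WT changed about as much as other ISs. At the study's threshold of 1.5-fold, 0 of 5 members were higher in Rif1KO and 0 were lower, where 2.27% of all 39116 ISs were higher and 2.70% lower, so that 0 of 5 is near the background. The SD of their log2 fold changes was 0.31, against 0.29 over all ISs. The 5 ISs together held 459 reads in WT and 504 in Rif1KO, or 137 and 135 RPM, a log2 ratio of -0.02 (95% counting interval -0.20 to 0.17). Their median log2 fold change was 0.04, against 0.02 over all ISs and -0.14 over 2485 ISs within 1 kb of other protein-coding starts. Counting intervals are exact (Clopper-Pearson) and leave out the spread between cultures and PCR copies.

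With no regard to width, the densest was the IS that began 638 bp past the end of Hist2h2bb, an H2B gene (chr3:96083562-96084614). This IS was 1053 bases wide, against a median of 447 over all ISs. It stood at 5.86 log2 RPM in WT and 5.90 in Rif1KO, from 195 and 223 reads, at percentile 97.2 of all ISs in WT. The difference of 0.04 had a counting interval of -0.24 to 0.33. Although it was among the stronger ISs of the first table, no IS of the second table overlapped it, whereas 83.5% of all ISs of the first table and 86.3% of those at or above percentile 97 were overlapped.

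The IS 9.43 kb upstream of Hist1h2al, an H2A gene (chr13:51307860-51308357), stood at 4.89 in WT and 4.61 in Rif1KO, a log2 change of -0.27 (-0.70 to 0.15). It was the member present in all 4 lists, and 76.8% of its 50-base words were unique. Downstream of Hist1h1c, the IS at chr13:23832394-23832855 stood at 4.47 and 4.58, with a change of 0.11 (-0.35 to 0.58), and was listed in Rif1KO and not in WT.

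Both remaining ISs were weak. The IS past the end of Hist1h2bb stood at 3.34 in WT, percentile 0.798, from 34 reads, and at 3.78 in Rif1KO from 51 reads, a change of 0.43 (-0.22 to 1.10). It too was listed in Rif1KO and not in WT. The IS beside Hist3h2bb-ps, an H2B pseudogene (chr11:58766764-58767129), stood at 4.09 and 3.75, a change of -0.34 (-0.92 to 0.23), and was listed in WT and not in Rif1KO. All 5 counting intervals included 0, so at this depth no member could be said to differ between WT and Rif1KO, including the 3 that were listed in 1 condition and not in the other. Over all ISs of that table, 34.1% were called in Rif1KO and not in WT, and 14.2% in WT and not in Rif1KO.

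**Figure D5:**
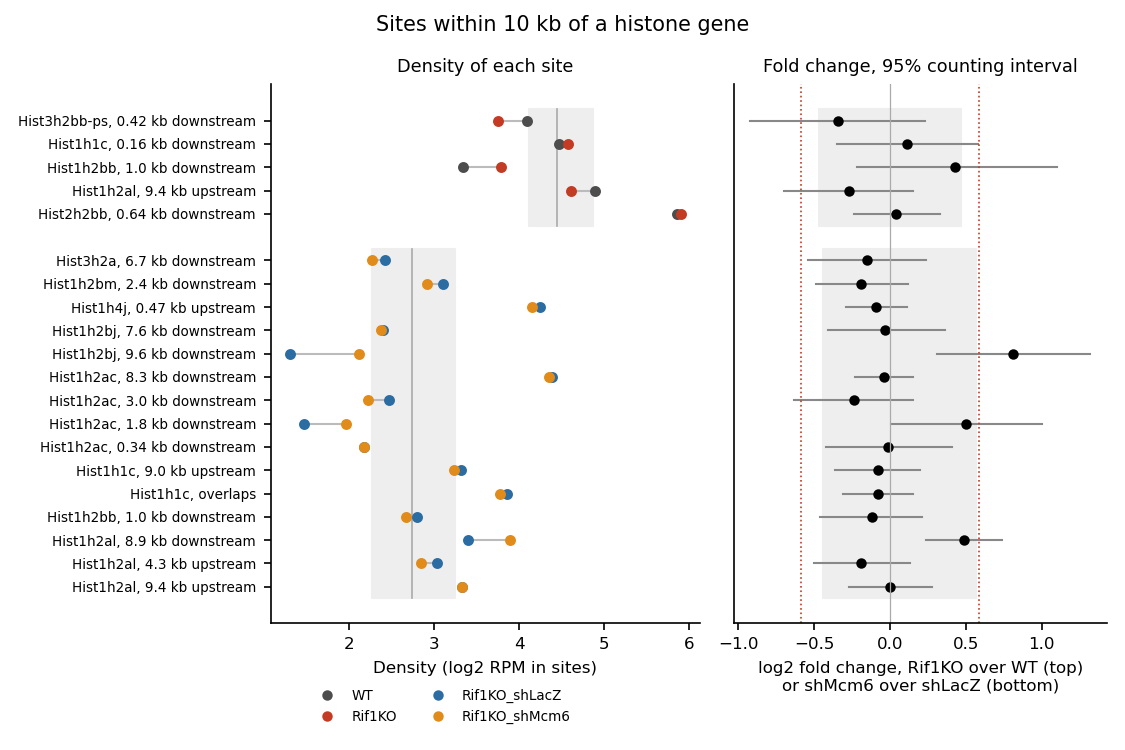
Left, density (log2 RPM) of each IS near a histone gene in both conditions of its comparison, named by the nearest histone gene, over the quartiles (grey band) and median (line) of the control density of all ISs. Right, log2 fold change with its 95% counting interval, over the range that holds the middle 90% of all ISs (grey), with the 1.5-fold threshold dotted. The IS 9.6 kb from Hist1h2bj lies past the threshold at 0.81.

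In Rif1KO_shMcm6 against Rif1KO_shLacZ, 1 of 15 members was at least 1.5-fold higher and 0 were lower, where 4.80% of all ISs were higher and 1.51% lower, so 1 of 15 is near the background. Of the 15, 11 had a log2 fold change below 0, with a median of -0.08 against -0.01 over all ISs and a range of -0.24 to 0.81. Their summed density was 134 RPM in both conditions, from 2829 and 3172 reads (log2 ratio 0.00, -0.07 to 0.08). Their median density in Rif1KO_shLacZ was 3.03, against 2.74 over all ISs, and 9 of 15 lay above the latter.

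Dense ISs stood near H2A, H4 and H1 genes. The densest, 8297 bp past the end of the H2A gene Hist1h2ac (chr13:23763407-23765039), stood at 4.39 in Rif1KO_shLacZ and 4.35 in Rif1KO_shMcm6, percentile 98.8 of all ISs in the control. It was also the widest member, at 1633 bases against a median of 596 over all ISs. Weaker ISs stood nearer to Hist1h2ac, 340, 1787 and 2952 bp past its end. The IS upstream of Hist1h4j (chr13:21825367-21826436) stood at 4.24 and 4.15, from 398 and 419 reads, a change of -0.09 (-0.29 to 0.11), at percentile 98.0. It was 1070 bases wide and all its 50-base words were unique. The IS over the end of Hist1h1c (chr13:23831890-23832892), which covered part of its last exon and 3' UTR, stood at 3.85 and 3.77, a change of -0.08 (-0.31 to 0.15).

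The changes of these dense ISs ran from -0.09 to -0.04, with intervals that included 0. The Hist1h1c, Hist1h2bb and upstream Hist1h2al ISs were those that both tables shared. Their log2 fold changes were 0.11, 0.43 and -0.27 for Rif1KO over WT, and -0.08, -0.12 and 0.00 for Rif1KO_shMcm6 over Rif1KO_shLacZ.

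The member past the threshold was a weak IS 9561 bp past the end of Hist1h2bj, an H2B gene (chr13:22145106-22145413). It held 52 reads in Rif1KO_shLacZ (1.30, percentile 1.17) and 102 in Rif1KO_shMcm6 (2.11, percentile 16.2), a change of 0.81 or 1.75-fold (0.31 to 1.32). It was listed in Rif1KO_shMcm6 and not in Rif1KO_shLacZ, as were 23.1% of all ISs of the second table. It lay just inside the 10 kb limit. The other member listed in that condition but not in its control was one 1787 bp past Hist1h2ac (chr13:23771120-23771549), at 1.46 in Rif1KO_shLacZ and 1.96 in Rif1KO_shMcm6, from 58 and 92 reads, a change of 0.50 (0.01 to 1.0).

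Both entered the table through the condition in which they were denser, so their fold changes and intervals lean upward. An IS called in both conditions had an interval above 0. At chr13:51288059-51289117, 8940 bp past the end of Hist1h2al, density was 3.40 in Rif1KO_shLacZ and 3.89 in Rif1KO_shMcm6, from 223 and 350 reads, a change of 0.49 (0.24 to 0.74) at percentile 92.8 of all fold changes. The other ISs around the same gene did not move with it. The one 4335 bp upstream stood at 3.03 and 2.84, a change of -0.19 (-0.50 to 0.13), and that at 9.43 kb stood at 3.32 in both. The IS past Hist1h2bm, an H2B gene, stood at 3.10 and 2.91, also a change of -0.19 (-0.49 to 0.12). The 6 members not yet given by density ran from 2.17 to 3.31 in Rif1KO_shLacZ and from 2.17 to 3.23 in Rif1KO_shMcm6, with changes of -0.24 to -0.01.

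At the limit of the rule, the nearest ISs left out stood 11.2 kb from a gene in the first table (4.16 and 4.23) and 10.2 kb in the second (2.77 and 2.91), with log2 fold changes of 0.07 and 0.14. Among the 84 ISs within 10 to 500 kb of a histone gene in the first table, 0 were past the threshold in either direction, and the median fold change was -0.03. Among 262 such ISs in the second, 6 were higher (2.29%) and 5 were lower (1.91%).

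Other genes of histone supply were counted in the same way, from a list of Hist4h4, an H4 gene outside these clusters, replacement variants, chaperones, processing factors and S phase regulators. Of 29 annotated genes of the 30 listed, 4 had an IS within 1 kb of a start in the first table (13.8%, Wilson interval 5.50 to 30.6%) and 5 in the second (17.2%, 7.60 to 34.5%), beside 10.8% and 22.4% of other protein-coding genes. They were H2afz, Daxx and Lsm11 in both tables, H1fx in the first, and H2afy and Atrx in the second. H2afz, which encodes the variant H2A.Z, had the densest, at 6.08 in WT and 5.83 in Rif1KO (-0.25, -0.53 to 0.03). Its densest IS in the second table stood at 3.70 in Rif1KO_shLacZ and 3.22 in Rif1KO_shMcm6, a change of -0.48 (-0.74 to -0.22).

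Lsm11, a part of the U7 particle that cuts histone mRNA after the stem-loop, had an IS at 5.65 in WT and 5.63 in Rif1KO (-0.01, -0.32 to 0.30), and 1 at 4.10 in Rif1KO_shLacZ and 3.81 in Rif1KO_shMcm6 (-0.30, -0.52 to -0.08). The latter was listed in Rif1KO_shMcm6 and not in Rif1KO_shLacZ, although its density was the lower there. Daxx, a chaperone of H3.3, had one at 5.13 and 4.79 in the first pair (-0.34, -0.73 to 0.06) and at 3.30 and 3.25 in the second (-0.06, -0.34 to 0.22). H1fx, a linker histone variant, had one at 4.34 and 4.03 in the first pair (-0.31, -0.83 to 0.21). In the second, changes ran in both directions. H2afy, which encodes macroH2A1, had a weak IS at 1.81 in Rif1KO_shLacZ and 2.36 in Rif1KO_shMcm6 (0.55, 0.12 to 0.98), listed in Rif1KO_shMcm6 and not in its control. Atrx, the partner of Daxx, had one at 2.46 and 2.02 (-0.44, -0.84 to -0.03). None of these ISs passed 1.5-fold. Npat, Slbp, Casp8ap2, Lsm10, Hist4h4 and the E-type cyclins Ccne1 and Ccne2 had no IS within 1 kb of a start in either table.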

How the data were processed

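SNS-seq libraries were trimmed with Trim Galore 0.6.4 and cutadapt 2.6 and aligned to mm9 with Bowtie 1.2.3 by the authors, who kept reads with a single best place, called peaks in each replicate without an input library, kept peaks shared by both replicates that lay in clusters, and merged the peaks of the conditions compared. Unique alignment leaves out copies, and the cluster filter leaves out isolated peaks. The deposited values of the merged tables are log2 RPM, 1 value per condition pooled over both replicates, and their linear values sum to 1000000. Whole reads were recovered from them for 100% of ISs, within 0.1 read. The authors' column of fold-change categories was not used, and how replicates were pooled is not given in the sources used here. Fold changes were the log2 of Rif1KO over WT and of Rif1KO_shMcm6 over Rif1KO_shLacZ, called at 1.5-fold as in the study, with exact counting intervals. Shares of genes have Wilson intervals. Starts were those of protein-coding transcripts in GENCODE M1, and words were counted on both strands of NCBIM37. ISs named in the text followed a rule: the 3 densest members of each comparison, the 3 highest and 3 lowest fold changes among members whose mean density reached the table's median, the gene of each histone class with the densest IS at its start in WT and in Rif1KO_shLacZ (of which there was Hist1h4j), all Hist2h and Hist3h genes, and the 5 coding histone genes of lowest coordinate with no IS at the start. Other ISs and genes named, and all printed sequences, were chosen after their values were seen. The sequence of 1 further IS is not reported here. The members and gene lists were chosen with earlier results of these data known. Scripts ran in Python 3.11.15 with numpy 2.4.6, scipy 1.17.1, pandas 2.3.3 and numba 0.67.0, and were tested on simulated data.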

Additional observations from a re-analysis of the deposited data

How the results depend on the processing

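No paired analysis was possible because each condition has a single pooled density, and for that reason no replicate could be left out and no replicate block fitted. Of 90 values under other settings, 80 stayed near the value reported (within its interval, or within 1.5 times its count). For the medians over the 5 members of the first comparison, that interval is the range from the lowest to the highest member. A median over fewer of these members could not leave it, so the count of 80 is not a measure of stability. For Rif1KO against WT, a lower fold threshold gave 1 of 5 members higher and 1 lower in place of 0, beside 12.7% and 11.4% of all ISs. The median control density of these members, 4.47, became 5.58 as log2 RPM per kb of IS and 5.37 among ISs called in both conditions. For Rif1KO_shMcm6 against Rif1KO_shLacZ, the 1 higher member became 3 of 15 at that threshold, beside 14.3% of all ISs, and 0 at 2-fold, within 5 kb, without the ISs of lowest control density, and among ISs called in both conditions. Its median control density was 4.24 for the 1 IS within 1 kb of a start, and 3.52 as log2 RPM per kb of IS. Its share of histone genes with an IS at the start was 0% over starts with at least 90% unique words, an alternative chosen after seeing the data. The median fold change ran from -0.34 to 0.08 over 12 alternatives in the first comparison, where the 0.04 reported turned negative in 4 (-0.34 within 1 kb of a start, -0.12 among ISs called in both conditions, -0.27 without the largest Hist1 group and -0.08 without Hist2), and from -0.11 to -0.04 over 13 in the second. Depth limits single ISs of the first comparison most, where an interval ran from -0.22 to 1.10.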
